A study of Mus musculus with 8 samples.

Results

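Expression of 28 genes of cholesterol synthesis and sterol handling was examined in Brap LKO livers and in the livers of Brap F/F controls. The genes were chosen by symbol as 18 enzymes of the synthesis pathway, 4 genes of sterol sensing (Srebf2, Scap, Insig1, Insig2), 2 of intracellular handling (Stard4, Soat2) and 4 that are known targets of the sterol-activated LXR receptors and act in efflux or in receptor turnover (Abca1, Abcg5, Abcg8, Mylip). All 28 were among the 24451 genes of the deposited table and among the 15352 genes tested, those whose normalized count averaged 5 or more across the 8 livers. The study sequenced polyadenylated RNA from the left liver lobe of 4 mice of each genotype, and asked which genes change when Brap, which encodes a RAS-binding ubiquitin ligase, is lost from hepatocytes. Brap LKO mice were Brap fl/fl with the Alb Cre transgene, whose Albumin promoter acts in hepatocytes. Whether other liver cells kept an intact gene was not examined here. Brap F/F mice were Brap fl/fl without Cre, so both groups carried the floxed alleles, in which exons 2 and 3 are flanked, and no group had Cre without the floxed alleles. All mice were C57BL/6, 18 wk old and fasted for 6 h, and the study's methods state that males were used. The study describes its baseline expression data as from mice on a chow diet, and the hour at which tissue was taken is not given in the sources used here.

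Cholesterol is built from acetyl-CoA through mevalonate, farnesyl diphosphate, squalene and lanosterol. When sterols run low in the endoplasmic reticulum, SCAP carries the transcription factor SREBP2 (the product of Srebf2) to the Golgi, where it is cut and released to switch on the enzymes of this route. INSIG proteins hold SCAP back when sterols are plentiful, and oxysterols then act through LXR to raise the ABC transporters that export cholesterol and Mylip, a ubiquitin ligase that removes lipoprotein receptors from the cell surface. The liver is the main organ of cholesterol synthesis and of its excretion into bile, and the pathway there follows feeding, fasting and the time of day.

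The counts on genes numbered between 26280884 and 33313914 reads per liver. Alb, Apoa1 and Ttr, which define hepatocytes, were abundant in every liver, and Alb had the most reads of these in each. The whole-gene count of Brap was 4042, 4203, 4065 and 3641 in Brap LKO and 4410, 4235, 3994 and 4106 in Brap F/F livers, a difference of -0.07 log2 units (SE 0.0676, adjusted p = 0.631 by limma). The floxed exons were not counted separately, so this count does not check the deletion. Of the 15352 genes, 102 (0.664%) were higher and 16 (0.104%) lower in Brap LKO livers at an adjusted p under 0.05, the threshold of the study. In bulk tissue, fewer cells of a type and less RNA per cell cannot be told apart.

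SREBP2 binds sterol response elements near gene starts, usually beside a CCAAT box bound by the factor NF-Y. Both were sought by their letters on both strands in windows from 250 bases before to 50 bases after the annotated start, taken from RefSeq on GRCm38.p6, the mm10 build to which the authors aligned their reads. Of the 28 genes, 23 had a window, and together they had 30 (Fdps, Fdft1, Sqle, Stard4 and Soat2 had none in the table). The element core CACNCCAC was found in 3 of these windows, those of Hmgcs1, Insig1 and Acat2, and in 6.24% of all 32851 windows in the table. The pentamer CCAAT was found in 20 of the 30 windows, against 37.4% of all windows. It occurred at least 2 times in 12 of the 30, against 11.5% of all windows. The following 250 bases before the start were chosen, with the values in view, to show the windows with the core (Hmgcs1, Insig1, Acat2), the windows of Mvk and Idi1, which hold CCAAT alone, that of Mylip, whose level ran opposite to the synthesis genes, and that of Abcg5, whose level was steady. Capitals mark matches to either motif as they read on the strand of the gene, so that ATTGG is CCAAT and GTGGCGTG is the core on the other strand. The counts above are over whole windows. The Abcg5 window held 1 CCAAT match, which did not lie fully within the 250 bases shown.
Hmgcs1 (chr13:119690101-119690350, plus strand): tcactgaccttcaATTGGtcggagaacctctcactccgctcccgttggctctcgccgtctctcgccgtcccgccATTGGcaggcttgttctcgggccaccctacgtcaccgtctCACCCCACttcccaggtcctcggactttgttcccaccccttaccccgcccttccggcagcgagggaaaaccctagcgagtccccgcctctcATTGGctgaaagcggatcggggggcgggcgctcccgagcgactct
Insig1 (chr5:28071162-28071411, plus strand): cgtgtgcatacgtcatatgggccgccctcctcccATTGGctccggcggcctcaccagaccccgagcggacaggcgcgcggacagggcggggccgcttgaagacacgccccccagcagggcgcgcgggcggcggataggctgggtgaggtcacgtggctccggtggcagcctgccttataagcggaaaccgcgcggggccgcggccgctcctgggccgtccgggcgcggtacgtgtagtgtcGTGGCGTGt
Acat2 (chr17:12960726-12960975, minus strand): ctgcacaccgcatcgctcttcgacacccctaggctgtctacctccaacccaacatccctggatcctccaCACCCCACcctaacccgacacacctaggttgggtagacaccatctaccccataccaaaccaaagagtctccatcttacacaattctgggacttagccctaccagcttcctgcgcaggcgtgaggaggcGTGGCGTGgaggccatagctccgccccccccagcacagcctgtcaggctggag
Mvk (chr5:114444019-114444268, plus strand): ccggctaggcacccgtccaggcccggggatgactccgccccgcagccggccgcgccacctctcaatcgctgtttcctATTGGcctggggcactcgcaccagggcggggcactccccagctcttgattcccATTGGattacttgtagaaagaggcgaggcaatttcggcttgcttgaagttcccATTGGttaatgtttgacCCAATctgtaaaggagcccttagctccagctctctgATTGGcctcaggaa
Idi1 (chr13:8885356-8885605, plus strand): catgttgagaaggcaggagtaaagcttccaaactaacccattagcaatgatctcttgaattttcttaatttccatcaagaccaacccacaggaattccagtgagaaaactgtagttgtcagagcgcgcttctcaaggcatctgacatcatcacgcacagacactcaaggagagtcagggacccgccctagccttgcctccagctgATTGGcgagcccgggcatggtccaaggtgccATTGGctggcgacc
Mylip (chr13:45389492-45389741, plus strand): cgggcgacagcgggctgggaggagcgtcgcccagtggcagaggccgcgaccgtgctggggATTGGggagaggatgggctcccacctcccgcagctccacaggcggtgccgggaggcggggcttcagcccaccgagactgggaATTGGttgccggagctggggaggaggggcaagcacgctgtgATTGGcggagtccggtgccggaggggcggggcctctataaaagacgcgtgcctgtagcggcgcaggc
Abcg5 (chr17:84683012-84683261, minus strand): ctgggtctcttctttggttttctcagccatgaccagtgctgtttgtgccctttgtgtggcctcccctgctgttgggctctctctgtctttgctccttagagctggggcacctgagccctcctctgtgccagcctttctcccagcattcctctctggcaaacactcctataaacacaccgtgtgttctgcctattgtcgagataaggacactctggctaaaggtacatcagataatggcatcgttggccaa

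In Hmgcs1 the core lay 136 bases before the start, among 3 CCAAT matches, whereas in Insig1 it lay 9 bases before the start and the only CCAAT 216 bases before it. The Acat2 window held 2 core matches and no CCAAT. Mvk had 5 CCAAT matches, the most of the windows searched in these genes, and Mylip had 3. Abcg5 and Abcg8, which encode the subunits of one sterol transporter, are read in opposite directions from starts 110 bases apart, and their windows share 209 bases. A match gives letters only and does not show a bound site.

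No sterol gene passed the test for a difference between the genotypes. At an adjusted p under 0.05, limma called 0 of the 28 genes higher and 0 lower, against 0.664% and 0.104% of all genes tested. At such shares a count of 0 among 28 genes is near that of all genes. On the recovered reads edgeR and DESeq2 also called 0. Of all genes edgeR called 108 higher and 14 lower, and DESeq2 455 and 170. At an unadjusted p under 0.05, limma passed 3 genes, Ebp, Soat2 and Stard4, against 15.8% of all genes tested. The lowest adjusted p was 0.218, for Ebp. The median log2 fold change was 0.05 over the 18 synthesis genes, 10 above 0 and 8 below, and -0.01 over all genes tested. Across the 28 genes, 14 were above 0 and 14 below. The 95% interval of the log2 fold change lay between -1 and 1 for 21 of the 28. The interval of Sqle, the most variable enzyme, ran from -1.03 to 2.81 with 4 livers a group. A difference of 1 log2 unit in either direction lay inside the Sqle interval, so such a change in Sqle was not detectable. Scaling every liver to the same total raised the median of all genes tested to 0.15 and turned the sign of 9 of the 28 fold changes without adding a call.

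**Figure D1:**
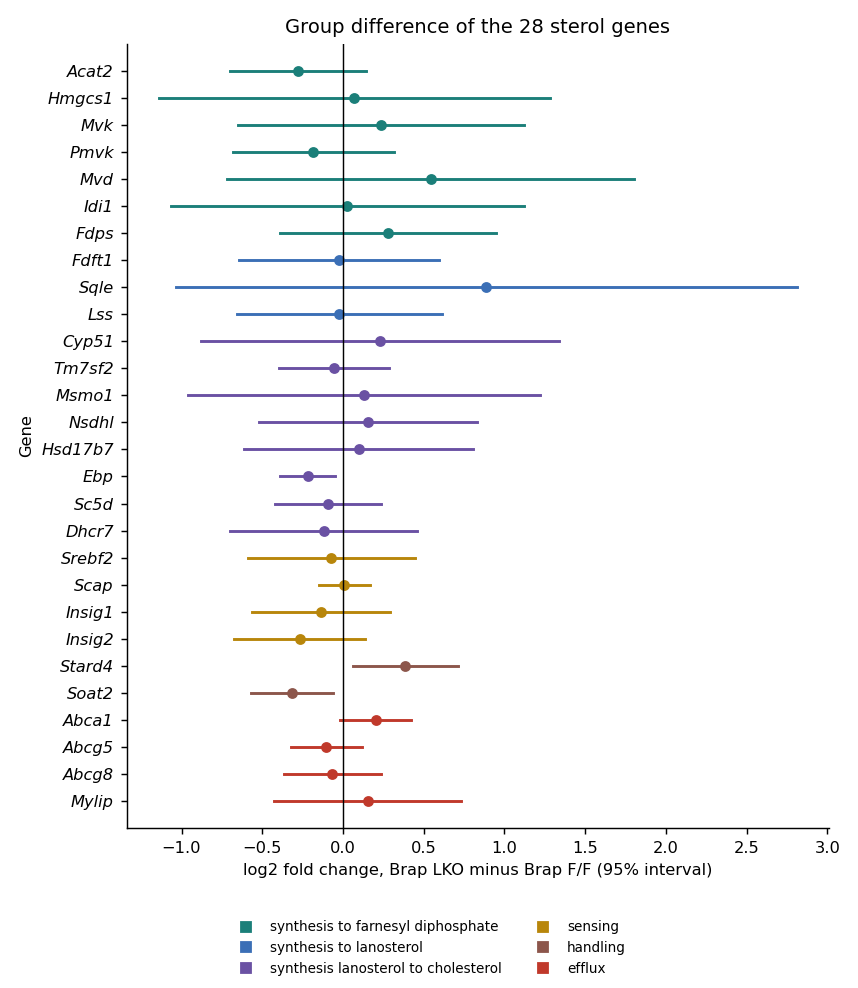
Log2 fold change of each of the 28 sterol genes in Brap LKO against Brap F/F livers (4 mice each), with the 95% interval from limma as a bar and colours for the roles. Most intervals span 0, and their width differs from gene to gene, with Sqle widest (-1.03 to 2.81) and Scap narrowest (-0.15 to 0.16).

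Among the first 7 enzymes, which lead from acetyl-CoA units to farnesyl diphosphate, Hmgcs1 had the most reads. Hmgcs1, the cytosolic HMG-CoA synthase, was counted at 2260, 2769, 3897 and 13016 in Brap LKO livers 1 to 4 and at 6813, 2382, 2918 and 5539 in Brap F/F livers 1 to 4. Brap LKO 4 stood alone at the top, the other 3 Brap LKO livers lay among or below the controls, and the group difference was 0.07 log2 units (SE 0.539, adjusted p = 0.961). Mvk, the mevalonate kinase, gave 286, 387, 477 and 785 against 511, 246, 247 and 696, with liver 4 highest in each group. Mvd, which decarboxylates mevalonate diphosphate, gave 113, 178, 241 and 622 against 242, 106, 82.0 and 315 (log2 fold change 0.54, SE 0.561, adjusted p = 0.659). For Mvd the highest liver was 7.59 times the lowest. Idi1, the isopentenyl diphosphate isomerase, gave 61.9, 85.0, 144 and 316 against 195, 91.5, 77.8 and 160, again with Brap LKO 4 highest and Brap LKO 1 lowest.

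Pmvk, the kinase between Mvk and Mvd, spread less, from 410 to 890 in Brap LKO and from 592 to 771 in Brap F/F livers. Fdps, the farnesyl diphosphate synthase, gave 141, 174, 271 and 368 against 211, 148, 147 and 244. Its value is uncertain, since 91.4% of its transcript bases match other annotated genes, most of them predicted genes, at 95% identity or more over at least 50 bases. Acat2, the cytosolic thiolase that starts the route, did not share this order. It gave 602, 678, 869 and 845 against 737, 950, 1258 and 734, with its highest value in Brap F/F 3, where the other enzymes were mostly low. Its counts are also uncertain, because 65.6% of its transcript matches Acat3 or the neighbouring Tcp1.

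The 3 enzymes that carry farnesyl diphosphate to lanosterol included the most variable member. Sqle, the squalene epoxidase, a rate-limiting oxygenase of the route (chromosome 15, 59315077 to 59331192, plus strand), was counted at 632, 804, 1381 and 4488 in Brap LKO and at 1645, 361, 191 and 2347 in Brap F/F livers. The groups overlapped over most of their range, the highest liver held 23.5 times the count of the lowest, and the difference of the means was 0.89 log2 units (SE 0.855, adjusted p = 0.636). Fdft1, the squalene synthase, gave 1118, 1205, 1443 and 2747 against 1930, 1184, 1370 and 1829. It shares 774 exon bases with Ctsb on the opposite strand, a gene with a mean normalized count of 14806, and the use of strand in counting is not stated, so part of its count may belong to Ctsb. Lss, the lanosterol synthase, gave 1014, 1117, 1209 and 2428 against 1690, 1079, 1093 and 1776. Brap LKO 4 was the highest liver and Brap LKO 1 the lowest for Fdft1 and Lss alike.

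Of the 8 enzymes that turn lanosterol into cholesterol, 5 varied by 2-fold or more over the 8 livers and 3 by less. Cyp51, the lanosterol demethylase, gave 2073, 2525, 3869 and 7980 against 5780, 2244, 1520 and 4331 (log2 fold change 0.23, SE 0.494, adjusted p = 0.845). Msmo1, the sterol C4-methyl oxidase, gave 1616, 1869, 3474 and 6532 against 4490, 1572, 1729 and 3906. For both, Brap LKO 4, Brap F/F 1 and Brap F/F 4 were the 3 highest livers. Nsdhl and Hsd17b7, which complete removal of the C4 methyl groups, ranged from 1005 to 2909 and from 1630 to 4457 over the 8 livers. Dhcr7, the last reductase of one branch of the route, gave 1701, 2012, 2454 and 3716 against 2849, 2097, 1997 and 3653, so that Brap LKO 4 and Brap F/F 4 were level at the top.

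Ebp, the sterol isomerase, was the single member whose groups did not overlap, against 9.87% of all genes tested. Its counts were 4386, 4976, 4867 and 4686 in Brap LKO and 5874, 5849, 5262 and 5052 in Brap F/F livers (log2 fold change -0.22, 95% interval -0.39 to -0.05, adjusted p = 0.218). With every liver scaled to the same total the difference was -0.06, and its groups then overlapped. Sc5d, the lathosterol oxidase, ranged from 8734 to 13910 and Tm7sf2, a sterol C14-reductase, from 1818 to 3031. Per kilobase of transcript, Ebp had the highest mean level of the 28 genes (2937 normalized counts per kb over the 8 livers), followed by Sc5d (2269), Insig1 (1881) and Hsd17b7 (1747), and Idi1 (46.7) and Mvd (135) had the lowest.

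**Figure D2:**
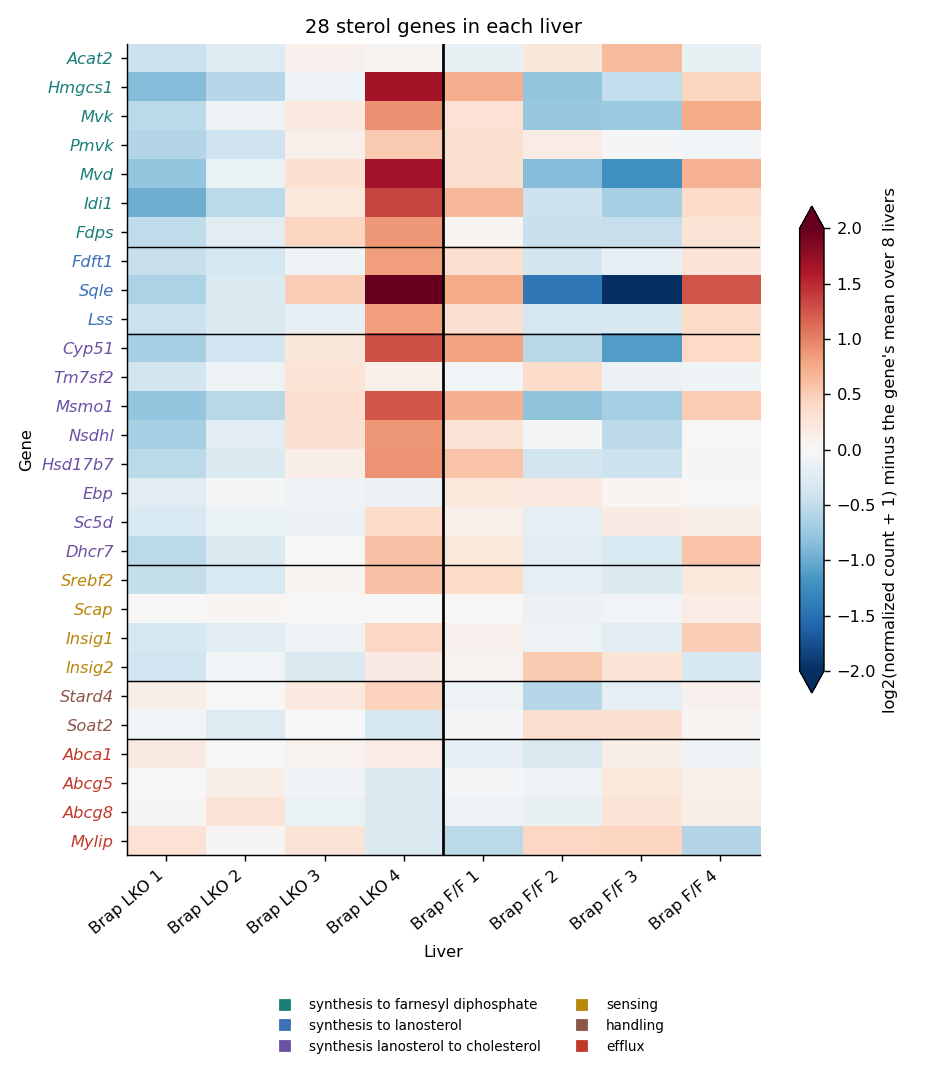
Heat map of the 28 sterol genes (vertical, grouped and coloured by role) in the 8 livers (horizontal, Brap LKO left of the line), as log2(normalized count + 1) minus the mean of the gene over the 8 livers. Most synthesis enzymes are high in Brap LKO 4, Brap F/F 1 and Brap F/F 4 and low in Brap LKO 1, Brap F/F 2 and Brap F/F 3, while Scap, Ebp, Abca1, Abcg5 and Abcg8 stay pale.

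Read by liver, most of the synthesis genes were high or low in the same livers, of either genotype, with Acat2, Ebp and Tm7sf2 among those that were not. The mean deviation of the 18 genes from their own means, in log2 units, was -0.57, -0.29, 0.14 and 0.90 in Brap LKO livers 1 to 4 and 0.36, -0.37, -0.49 and 0.32 in Brap F/F livers 1 to 4. Brap LKO 4 was the highest liver for 15 of the 18 genes and Brap LKO 1 the lowest for 13. Within the Brap LKO group Brap LKO 1 was lowest for all 18. Neither genotype held all of the high or all of the low livers.

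The spread between livers of the same genotype was wider for these enzymes than for most genes. The within-group SD of log2(normalized count + 1) had a median of 0.516 over the 18 synthesis genes and of 0.229 over the other 10 sterol genes, and its median over all genes tested was 0.214. It was above that last value for 17 of the 18 enzymes, Ebp being the exception, and 7 of the 18 were in the top 10% of all genes. Sqle had an SD of 1.51, a value reached by 0.345% of the genes tested, followed by Mvd (0.982), Hmgcs1 (0.949) and Cyp51 (0.869). Without Brap LKO 4 the median of the 18 was 0.408 and that of all genes 0.207, and 16 of the 18 were above the latter, Ebp and Sc5d being the exceptions. The ratio of the highest to the lowest Brap LKO liver for Hmgcs1 was 5.76 with that liver and 1.72 without it, and for Sqle 7.10 and 2.19.

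**Figure D3:**
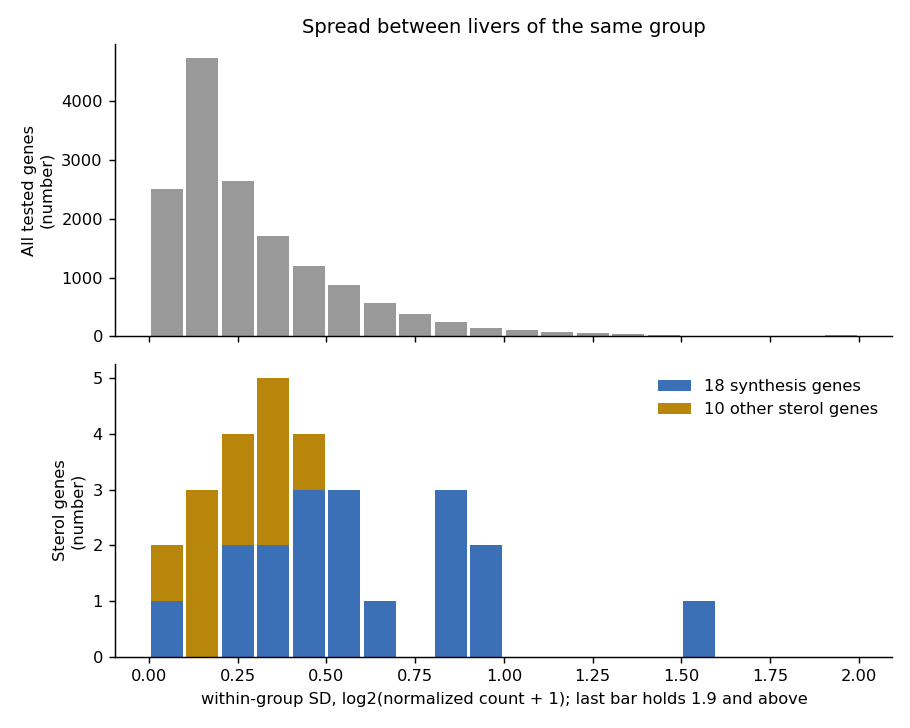
Number of genes by their within-group SD (log2 units, bins of 0.1) for all 15352 genes tested (upper panel) and for the sterol genes (lower panel, blue for synthesis, gold for the other 10). The bulk of all genes lies below the median of the synthesis genes (0.516), and Sqle is the bar at 1.5.

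By the animal numbers that the labels give, the livers form a lower series, Brap LKO 1 to 3 with Brap F/F 1, and a higher series, Brap LKO 4 with Brap F/F 2 to 4. What separates them, such as litter, date or library preparation, is not given. Compared within these series, the genotypes differed in opposite directions. In the lower series the Brap LKO livers all lay below the control for 14 of the 18 synthesis genes and above it for 0 (34.2% and 32.8% of all genes tested), with a median difference of -0.56 log2 units. In the higher series Brap LKO 4 lay above all 3 controls for 15 of the 18 and below them for 1, Ebp (27.8% and 29.6% of all genes), with a median difference of 1.07. For Sqle the difference was -0.89 in the lower and 3.04 in the higher series, and for Hmgcs1 it was -1.23 and 1.95. Ebp was lower in Brap LKO livers in both series (-0.31 and -0.20), and Stard4 (0.21 and 0.68) and Abca1 (0.25 and 0.23) were higher in both. With 1 liver of a genotype in each series no test was made, and a difference between series cannot be told apart from a difference between single mice. With the series as a covariate limma again called 0 of the 28 genes, beside 132 higher and 13 lower of all genes tested.

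Genes of sterol sensing followed the enzymes in part. Srebf2, which encodes SREBP2, gave 1508, 1690, 2172 and 3133 in Brap LKO and 2733, 1848, 1731 and 2427 in Brap F/F livers. Its 3 highest livers were again Brap LKO 4, Brap F/F 1 and Brap F/F 4, and its group difference was -0.07 (SE 0.230, adjusted p = 0.898). Insig1, the sterol-responsive INSIG gene, gave 3883, 4248, 4639 and 6624 against 5288, 4608, 4312 and 6981, with the same 3 livers on top. Insig2, whose protein acts alike and whose transcript in liver is known to be lowered by insulin, gave 2841, 3570, 3035 and 4149 against 3870, 5287, 4460 and 2947, a different order. The ratio of the Insig1 to the Insig2 count ran from 0.872 in Brap F/F 2 to 2.37 in Brap F/F 4. Scap gave between 4570 and 4719 in Brap LKO and between 4253 and 5120 in Brap F/F livers, a span of 1.2-fold, and the 95% interval of its group difference was -0.15 to 0.16.

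The handling genes were 2 of the 3 members with an unadjusted p under 0.05. Stard4, a carrier that moves sterol between membranes, gave 3199, 2909, 3363 and 4044 in Brap LKO and 2732, 1983, 2569 and 3125 in Brap F/F livers. Only Brap LKO 2 fell below a control (Brap F/F 4), and the difference was 0.39 log2 units (95% interval 0.06 to 0.71, adjusted p = 0.253). Soat2, which esterifies cholesterol in hepatocytes, gave 1015, 886, 1063 and 845 against 1025, 1342, 1307 and 1081 (log2 fold change -0.32, 95% interval -0.57 to -0.06, adjusted p = 0.231). Brap LKO 3 overlapped with Brap F/F 1, and the other Brap LKO livers were below every control.

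The transporters that export cholesterol were steady by comparison. Abca1, which loads cholesterol onto apolipoproteins, gave 8936, 7931, 8279 and 8746 in Brap LKO and 7042, 6439, 8688 and 7449 in Brap F/F livers (log2 fold change 0.20, 95% interval -0.02 to 0.42, adjusted p = 0.351). Abcg5 gave 3493, 3886, 3376 and 2933 against 3448, 3362, 4079 and 3780. Abcg8 gave 4920, 5840, 4410 and 3971 against 4512, 4374, 5835 and 5267. The ratio of Abcg8 to Abcg5, whose products work as a pair, stayed between 1.3 and 1.5 in all 8 livers, and both were lowest in Brap LKO 4, the liver highest in most synthesis enzymes. Their exons share 82 bases on opposite strands. Mylip varied more, with 533, 443, 518 and 359 in Brap LKO and 298, 577, 583 and 287 in Brap F/F livers, and its lowest values were in Brap F/F 4, Brap F/F 1 and Brap LKO 4, the livers with the most Sqle.

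To test this shared variation gene by gene, every gene was regressed on Sqle within the groups, that is, limma was fitted to all other 15351 genes with the log2 level of Sqle and the genotype as terms. This test, and Sqle as the index, were chosen after the values had been seen. At an adjusted p under 0.05, 14 of the other 27 sterol genes rose with Sqle (4.80% of all genes rose) and 1, Mylip, fell (3.88% of all genes fell). The 14 were 12 of the 17 other enzymes together with Srebf2 and Insig1. The steepest was Mvd, at 0.63 log2 units per log2 unit of Sqle (95% interval 0.50 to 0.76, adjusted p = 0.00264). Hmgcs1 (0.55), Cyp51 (0.55), Msmo1 (0.53), Idi1 (0.50) and Mvk (0.44) followed, with adjusted p-values from 0.00274 to 0.0135.

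A second tier of enzymes had slopes near 0.3. These were Hsd17b7 (0.31), Fdps (0.30), Lss (0.30), Dhcr7 (0.28), Nsdhl (0.27) and Fdft1 (0.27), with adjusted p-values between 0.00543 and 0.0455. Srebf2 rose by 0.24 (95% interval 0.15 to 0.33, adjusted p = 0.0115) and Insig1 by 0.20 (0.13 to 0.27, adjusted p = 0.0102). Mylip fell by 0.27 per log2 unit of Sqle (95% interval -0.37 to -0.17, adjusted p = 0.0112), the opposite sign to the 14 genes that rose. The ratio of the Sqle to the Mylip count accordingly ran from 0.328 in Brap F/F 3 to 12.5 in Brap LKO 4.

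**Figure D4:**
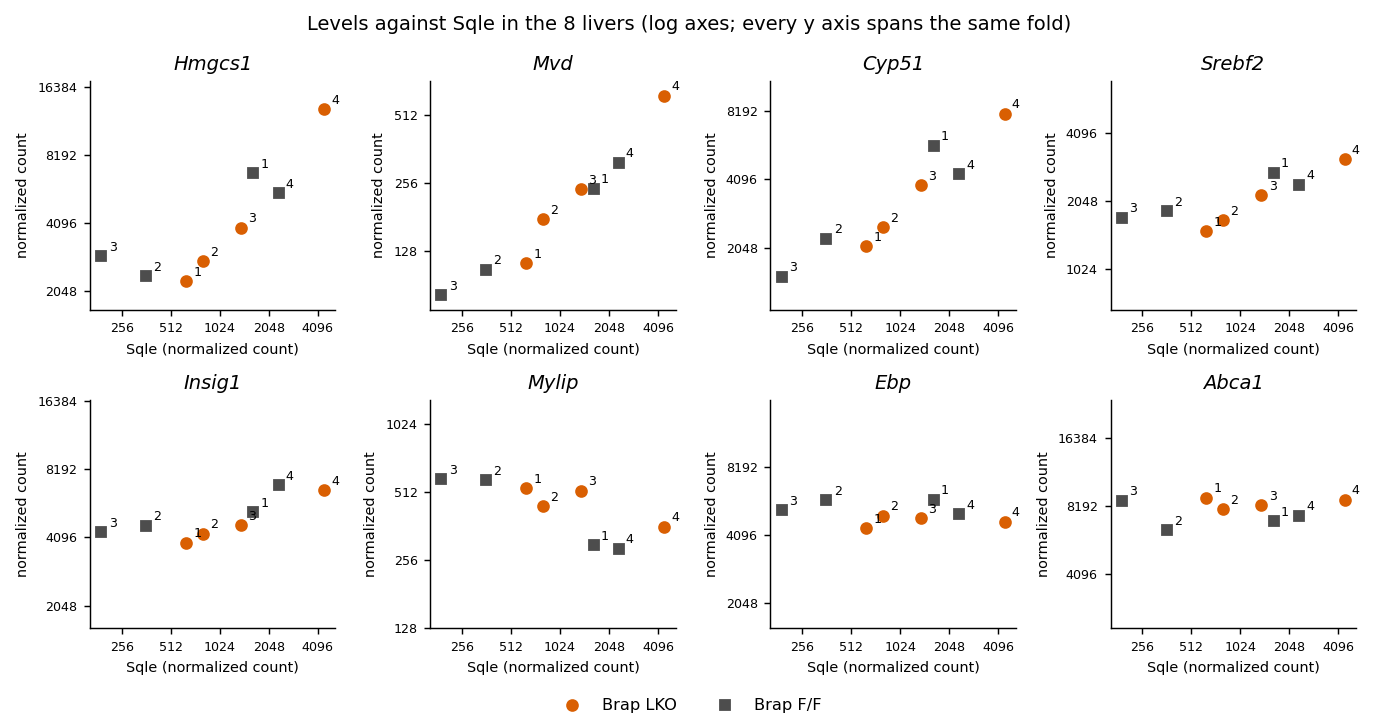
Normalized counts of 8 genes (vertical) against that of Sqle (horizontal) in the 8 livers, on log2 axes whose vertical span is the same fold in every panel (orange circles for Brap LKO, grey squares for Brap F/F, numbers for replicates). Hmgcs1, Mvd, Cyp51, Srebf2 and Insig1 climb with Sqle, Mylip declines (0.27 per log2 unit), and Ebp and Abca1 run flat.

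The other 12 genes did not pass. Of the enzymes these were Pmvk (slope 0.15, adjusted p = 0.202), Sc5d (0.09), Tm7sf2 (0.02), Acat2 (-0.08) and Ebp, whose slope of -0.0014 had a 95% interval of -0.06 to 0.06. Scap (0.04), Insig2 (-0.06) and Stard4 (0.12, adjusted p = 0.0821) were the others with roles in sensing and handling, with Soat2 at -0.09 (adjusted p = 0.102). The intervals of Abca1 (-0.10 to 0.06), Abcg5 (-0.13 to 0.02) and Abcg8 (-0.17 to 0.03) lay close to 0, so a slope as steep as that of the second tier was outside the interval of each of these transporters. Over the 8 livers, and as a description only, Pearson's r with log2 Sqle was 0.974 for Mvd (Spearman's rho 1, and r 0.967 without the 2 livers farthest from the median of Sqle) and -0.789 for Mylip (rho -0.905, r -0.829 without those livers). An r of 0.8 or more was reached by 11 of the 27 sterol genes and by 4.78% of all genes tested.

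**Figure D5:**
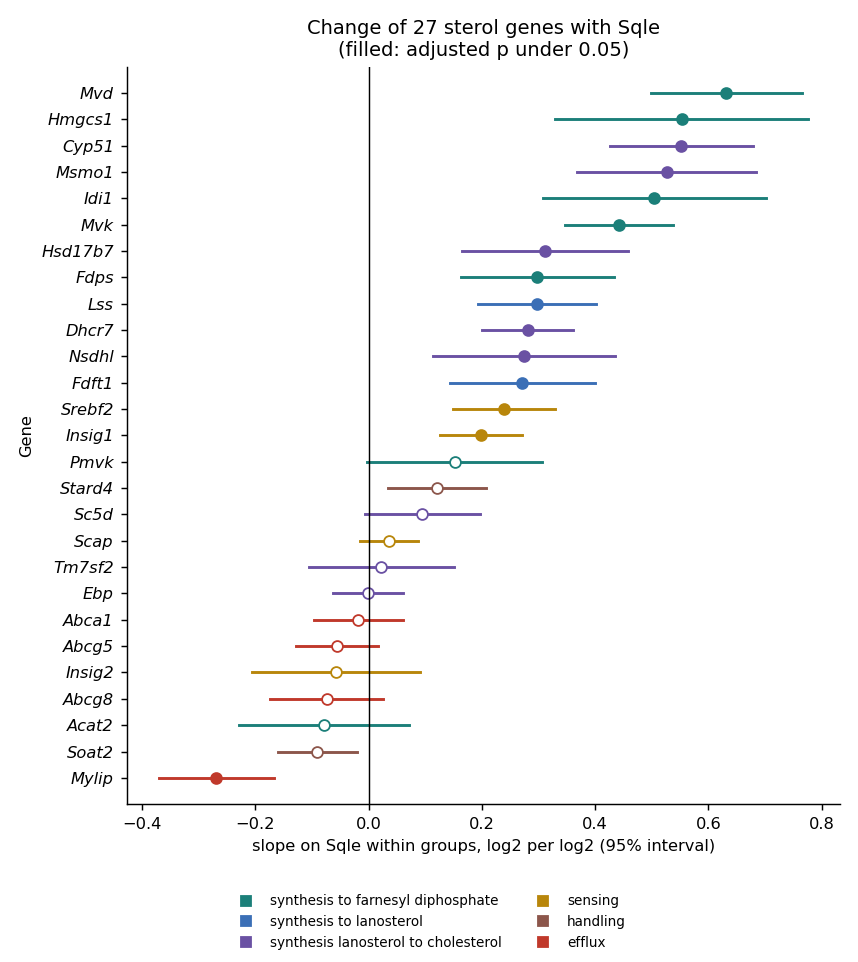
Slope of each of the other 27 sterol genes on Sqle within the groups (log2 per log2, limma, bars for 95% intervals, colours for roles), with filled points for an adjusted p under 0.05. Of the 15 filled points, 14 lie above 0 and Mylip below it, and the ABC transporters, Ebp and Scap are centred near 0.

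The slopes were refitted without single livers. Of the 14 rising genes, 11 passed in each of the 8 fits that left out 1 liver, and Fdps, Hsd17b7 and Nsdhl did not. Of all genes, between 82 (without Brap F/F 3) and 689 (without Brap LKO 3) rose in those fits. Without Brap F/F 3, which had the least Sqle, 11 rose and 0 fell, and Mylip had an adjusted p of 0.0695 at a slope of -0.27. At an unadjusted p under 0.05, 16 rose and 2 fell in that fit, beside 18.7% of all genes in either direction. That fit called fewer genes in general, 0.534% of all genes rising against 4.80% with all livers. Without Brap LKO 4, which had the most Sqle, 11 rose, where 3.04% of all genes rose. Mylip fell in that fit, as did 304 of all genes. With Hmgcs1 in place of Sqle as the index, 8 sterol genes rose and 0 fell, beside 0.143% of all genes rising. In that fit 17 rose and 2 fell at an unadjusted p under 0.05, beside 18.8% of all genes in either direction. With the replicate number as a block, limma called 0 sterol genes and 0 of all genes with Sqle, so these calls rest on a fit without that block.

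Further genes of the sterol network gave no call between the genotypes with limma. Of 45 genes listed, 44 were tested (all but Ch25h). By limma 0 were called in either direction, where 0.664% of all genes were higher and 0.104% lower. An unadjusted p under 0.05 was reached by 3 (6.82%), a smaller share than the 15.8% of all genes tested. On the recovered reads edgeR also called 0, and DESeq2 called 1, Lcat, lower. The 3 genes were Nr1h3, which encodes LXR alpha (log2 fold change -0.20, adjusted p = 0.181), Abcg1, a cholesterol transporter (0.40, adjusted p = 0.252), and Lcat, which esterifies plasma cholesterol (-0.27, adjusted p = 0.153).

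With Sqle, 3 of these 44 genes rose (6.82%, against 4.80% of all genes) and 4 fell (9.09%, against 3.88%). Both counts are small, and the genes are named as a description and not as a result about the list. Those that rose were Cyp7b1, an oxysterol hydroxylase (slope 0.50, adjusted p = 0.0157), Hsd3b7, a steroid dehydrogenase of bile acid synthesis (0.12, adjusted p = 0.0447), and Gramd1c, of a family of sterol carriers (0.24, adjusted p = 0.0116). Cyp7b1 gave 9273, 11531, 7950 and 15731 in Brap LKO and 8213, 3234, 2914 and 15755 in Brap F/F livers, so Brap F/F 2 and 3 stood well below the others. Those that fell were Aacs, a cytosolic ligase for acetoacetate (-0.48, adjusted p = 0.00335), Cyp46a1, the cholesterol 24-hydroxylase (-0.59, adjusted p = 0.00543), and the LXR targets Pltp and Smpdl3a (-0.55 and -0.11, adjusted p = 0.0267 and 0.0261). Pltp, the phospholipid transfer protein, gave 933, 965, 990 and 812 in Brap LKO and 682, 3295, 3424 and 578 in Brap F/F livers, so Brap F/F 2 and 3, which were low in most synthesis enzymes, were far above the rest.

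Markers of other cells and states moved with the groups or with Sqle in places, and their part in these results was not tested. Between genotypes, limma called 1 of 6 cholangiocyte genes, Cftr, where 0.664% of all genes were higher and 0.104% lower. Cftr gave 16.4, 16.1, 6.07 and 17.7 in Brap LKO and 0, 1.02, 2.10 and 0.981 in Brap F/F livers. In Brap F/F livers 1 read was 0.981 to 1.14 normalized counts, so the control values of Cftr lay near the floor. The summed level of the 6 genes was 1349 to 3015 against 718 to 1485. At an unadjusted p under 0.05, 5 of these 6 passed in limma (15.8% of all genes did). DESeq2 called 2, Epcam and Cftr, where it called 455 of all genes higher and 170 lower. Of 8 stellate cell and fibroblast genes 1 was called, Pdgfrb, and their sum was 7075 to 11057 against 4739 to 8247. Of these 8, 4 passed at an unadjusted p under 0.05, and DESeq2 called 3, Pdgfrb, Col1a1 and Col3a1. None of the 10 macrophage, 6 endothelial, 5 lymphocyte or 7 hepatocyte genes was called by limma or edgeR, at an unadjusted p under 0.05 these had 3, 0, 1 and 1, and DESeq2 called 2, 0, 1 and 0, all higher. With Sqle, Spp1, Col1a1 and Serpina1a rose and Lyve1 and Cry1 fell at an adjusted p under 0.05 (4.80% and 3.88% of all genes). All 6 endothelial genes had a negative slope, at unadjusted p-values from 0.00275 (Lyve1) to 0.0142 (Kdr) by limma. Of all genes, 25.8% had a slope with an unadjusted p under 0.05. Of 11 clock genes, limma, edgeR and DESeq2 called 0 between genotypes (1 at an unadjusted p under 0.05 in limma). Cry1 (slope -0.32, adjusted p = 0.036) was the 1 called with Sqle by limma. At an unadjusted p under 0.05, Per1 (slope -0.15), Per2 (-0.14) and Ciart (-0.19) also fell and Nr1d1 (0.28) rose. Of 7 fasting genes, 0 were called by any of these tools or with Sqle (1 at an unadjusted p under 0.05 between genotypes in limma), and their median log2 fold change was -0.34. The 1 gene was Angptl4, at 4648, 5607, 6174 and 6229 in Brap LKO and 7193, 8067, 6811 and 6574 in Brap F/F livers, with no overlap (adjusted p = 0.181). Pck1, a gene of gluconeogenesis, was 89009 to 119631 in Brap LKO and 105339 to 197358 in Brap F/F livers.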

How the data were processed

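RNA of 8 livers (4 Brap LKO, 4 Brap F/F, each a separate mouse by its label) was sequenced (50-base single-end reads). STAR 2.6.0c was used by the authors for alignment to mm10, and the deposited signal is a normalized count, that is, reads per gene over the size factor DESeq2 gave that liver. The counting tool, annotation release and use of strand are not given in the sources used here. Every value (100%) was a whole multiple of 1 read (tolerance 0.01), so reads were recovered by division. All 8 columns were used. The deposited DESeq2 comparison of the groups (fold changes, standard errors and p-values) was not used.

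Log2(normalized count + 1) was compared with limma 3.58.1 in R 4.3.3 (lmFit, eBayes with trend) over the 15352 genes with a mean of at least 5, at a Benjamini-Hochberg adjusted p of 0.05 over all of them, without covariates. The study's own test, DESeq2, needs counts, so DESeq2 1.42.0 and edgeR 4.0.16 (quasi-likelihood) on recovered reads were alternatives. Other alternatives were pseudocounts of 0.5 and 5, no filter or a minimum of 20, the same total per liver, the animal series, the replicate number as a block and each liver left out. Slopes on Sqle and Hmgcs1, and the comparison within animal series, were added after the values had been seen. Intervals are 95%. Both kinds of fit were tested on simulated data. All 28 members are named, and of the other lists the genes past a threshold and the defining markers. Genes named besides were chosen after their values were seen. The members and lists were chosen with earlier results of these data known. Exon overlaps and transcripts came from GENCODE vM21 (per-kb levels use the transcript with the longest coding sequence), and promoter windows from RefSeq. Depth was between 26280884 and 33313914 reads. How much of the spread between livers was counting error was not tested.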

Additional observations from a re-analysis of the deposited data

Results flagged for a closer look

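In 4 of the 56 sets of 4 livers (28 genes in 2 groups), 1 liver stood apart from the other 3 by Dixon's criterion, where chance would give about 2.8. Hmgcs1 was 13016 in Brap LKO 4, where the next liver of the group had 3897. Lss was 2428 in Brap LKO 4, with the next at 1209. Tm7sf2 was 3031 in Brap F/F 2, with the next at 2266, and Sc5d was 9355 in Brap F/F 2, the lowest of its group, with the next at 11577.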

How the results depend on the processing

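Under all 17 other settings of the group comparison (9 that changed a choice and 8 that left out a liver), 0 sterol genes were called higher and 0 lower, and the lowest adjusted p of a sterol gene was 0.0839. Of the 476 fold changes recomputed, 62 changed sign, and 10 of the 28 genes kept their sign throughout. All genes called higher and lower numbered 102 and 16, 455 and 170 by DESeq2, 459 higher with the same total per liver, and 9 lower at a minimum mean of 20. Leaving out each liver gave 11 to 178 higher and 4 to 54 lower, the most in both without Brap F/F 4 and at most 47 and 7 without any other liver. Groups did not overlap for 1 sterol gene, against 9.87% of all genes tested. They did not overlap for 2 with the same total (Stard4 and Abca1) and for 1 to 2 when a liver was left out. The share of all genes was not counted in those other settings, so these counts are no result about the sterol genes. The median of the synthesis genes was -0.22 (without Brap LKO 4) to 0.33 (without Brap LKO 1).

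Fold changes (log2) that changed sign did so as follows. With edgeR, Fdft1 moved to 0.059 and Lss to 0.047. With DESeq2, Fdft1 moved to 0.046 and Lss to 0.034. With the animal series as a covariate, Fdft1 moved to 0.15, Lss to 0.16, Tm7sf2 to 0.017, Sc5d to 0.027, Dhcr7 to 0.047, Srebf2 to 0.017, Scap to -0.00067 and Insig1 to 0.019. With the same total per liver, Fdft1 moved to 0.13, Lss to 0.13, Tm7sf2 to 0.10, Sc5d to 0.066, Dhcr7 to 0.037, Srebf2 to 0.085, Insig1 to 0.024, Abcg5 to 0.055 and Abcg8 to 0.090. Leaving out single livers turned the sign of 16 genes, with ranges of -0.31 to 0.12 for Fdft1, -0.30 to 0.12 for Lss, -0.28 to 0.072 for Srebf2, -0.021 to 0.32 for Mylip, -0.47 to 0.37 for Hmgcs1, -0.42 to 0.36 for Idi1, -0.15 to 0.063 for Tm7sf2, -0.26 to 0.41 for Msmo1, -0.19 to 0.30 for Hsd17b7, -0.031 to 0.058 for Scap, -0.16 to 0.54 for Cyp51, -0.17 to 0.017 for Abcg8, -0.34 to 0.049 for Dhcr7, -0.29 to 0.0079 for Insig1, -0.032 to 0.52 for Mvk and -0.11 to 0.40 for Nsdhl. The cause of these reversals was not tested.

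Sterol genes rising and falling with Sqle numbered 14 and 1, beside 4.80% and 3.88% of all genes. With no group term they were 12 and 0 (15 and 2 at an unadjusted p under 0.05 by limma, beside 23.4% of all genes). With Hmgcs1 as the index they were 8 and 0, where 0.143% of all genes rose. With a liver left out they were 11 to 14 and 0 to 1 (0 falling without Brap F/F 3). Of all genes, 82 to 689 rose and 38 to 582 fell in those 8 fits.

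The replicate number as a block gave 80 genes higher and 15 lower and no sterol gene, and with Sqle limma then called 0 rising and 0 falling sterol genes and 0 of all genes (13 rising and 1 falling at an unadjusted p under 0.05, beside 9.12% of all genes). Deviations of same-numbered livers correlated at -0.129, 0.00336, 0.196 and 0.292, which is not over 0.1 in every pair, and the labels tie no litter, batch or day to the numbers, so the livers were not treated as paired. Of the 4 Brap LKO livers, 3 correlated best with their own number, in replicate 2 at 0.00336 only. Whether same-numbered livers share anything was not tested. With 4 livers a group, 95% intervals reached 1.92 log2 units to either side for Sqle and 0.158 for Scap, which limits what could be detected.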
